A study of Homo sapiens with 6 samples.

Results

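The genes described here encode subunits of the mitochondrial respiratory chain and of ATP synthase. They were chosen by symbol in the platform's probe annotation: NDUFA, NDUFB, NDUFC, NDUFS and NDUFV genes followed by a number, SDHA to SDHD, and symbols that begin with UQCR, COX4 to COX8 or ATP5. The rule found 28 of 14884 named genes, on 30 probe sets, and each gene is represented by the probe set with the highest mean over the 6 arrays. All 17 COX genes of the rule in the reference gene table were named on the array, as were 5 of 9 protein-coding UQCR genes and 3 of 20 ATP5 genes. No protein-coding NDUF gene (0 of 37) and no SDH gene (0 of 4) was among the named probe sets, so complex I and complex II subunits were not analysed here. The label of a whole respiratory chain therefore holds for the COX genes of the rule in complex IV, in part for complex III and ATP synthase, and not for the first complexes. Subunits encoded in mitochondrial DNA, those of complex IV included, were not among the named probe sets. The other 3 members are non-coding: NDUFA6-DT, a divergent transcript at the NDUFA6 locus, NDUFB2-AS1, an antisense RNA of NDUFB2, and UQCRBP1, a pseudogene of UQCRB.

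The platform was the Affymetrix Human Gene 2.0 ST array, which reads whole transcripts with short oligonucleotides. The cells were RPMI8226, KMS11 and U266, established lines of multiple myeloma, a cancer of plasma cells. Per the labels' protocols, the cells of a line were given miR-10a mimic or a scrambled control oligonucleotide (Negative Control 1), at 100 nM with the transfection reagent HiPerFect, and collected after 48 h. There was 1 array per line and treatment, so that 3 mimic and 3 control arrays were available, and each line was represented by 2 arrays that differ in treatment. No untransfected array was analysed here, and all 6 cultures were transfected.

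The respiratory chain moves electrons from NADH and succinate to oxygen and pumps protons across the inner mitochondrial membrane. Complex III passes electrons from ubiquinol to cytochrome c, and complex IV, cytochrome c oxidase, passes them from cytochrome c to oxygen. ATP synthase, often called complex V, lets the protons back and makes ATP. Most subunits are encoded in the nucleus and are made in nearly every cell, but several complex IV subunits exist in a widely used form and in a form largely restricted to muscle, lung or testis. In plasma cells, oxidative phosphorylation supplies ATP beside the heavy load of antibody synthesis.

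Values are log2 units as deposited, and a difference of 1 unit is a change by a factor of 2 on the scale of the array. Array medians ran from 3.61 to 3.66. Correlation over all tested genes was 0.992 to 0.993 between the arrays of 1 line and 0.715 to 0.779 between lines. Of 6 named plasma cell markers, 5 stood at or above the level of the expression filter (4.70, the median of named genes) in each line. IRF4, the highest, lay between 10.33 and 10.86. SDC1, which encodes the plasma cell antigen CD138, stood at 5.62 in KMS11, 7.23 in RPMI8226 and 9.49 in U266. SLAMF7 lay below that level in RPMI8226 (3.56) and KMS11 (3.37), and CD38 in U266 (3.95). Of 11 named markers of B, stromal, T and myeloid cells, CD8A alone reached that level, at 5.24 in RPMI8226 and 4.82 in KMS11, and all others stood at or below 4.61. Of the 28 members, 22 had a mean at or above the filter and were tested among 7442 genes.

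**Figure D1:**
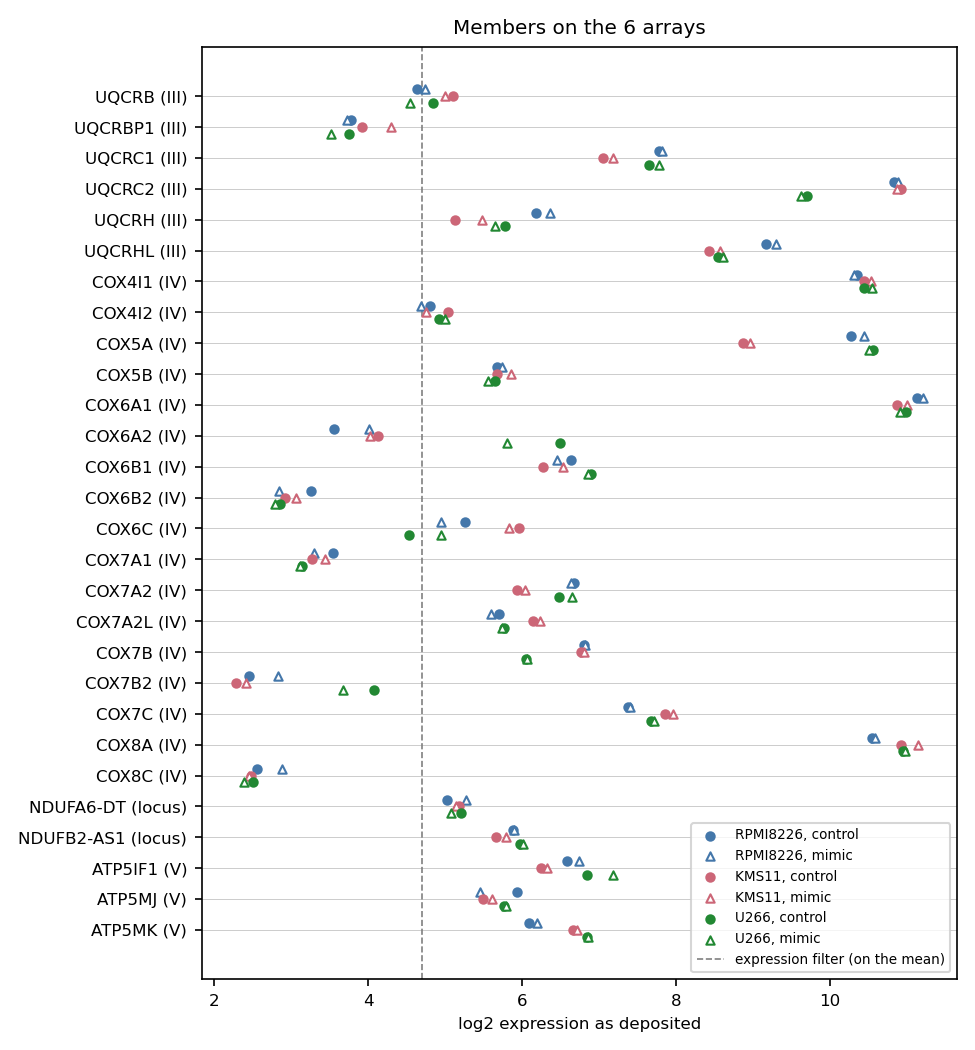
Log2 expression of each of the 28 members (rows, with the complex in brackets) on the 6 arrays. Circles are controls and triangles mimic arrays, colours are lines, and the dashed line is the expression filter at 4.70, which applies to a gene's mean. COX6A2 and COX7B2 lie apart in U266, COX5A in KMS11 and UQCRC2 in U266.

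The first question was how far the 3 lines differ in these genes. Subunits of complexes III and IV stood apart in different lines and directions, and a joint shift was not tested. COX5A was 3.05-fold lower in KMS11 than in U266, UQCRC2 was 2.35-fold lower in U266 than in KMS11, and COX6C was 2.23-fold higher in KMS11 than in U266. The F test between lines (limma, adjusted p under 0.05) called 15 of 22 tested members, where it called 82.4% of all tested genes. A range of at least 1 log2 unit between line means was reached by 3 members, COX5A, UQCRC2 and COX6C, against 36.4% of all tested genes. The median range was 0.53 log2 units over the tested members and 0.77 over all tested genes. By count and by median, the members therefore lay on the even side of these lines' expression at this filter. This description was not tested. The share past the F test depended on the filter. With no filter, the F test called 15 of 28 members and 50.8% of all named genes. Among the upper 25% of named genes, the F test called 11 of 12 members and 93.4% of all.

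**Figure D2:**
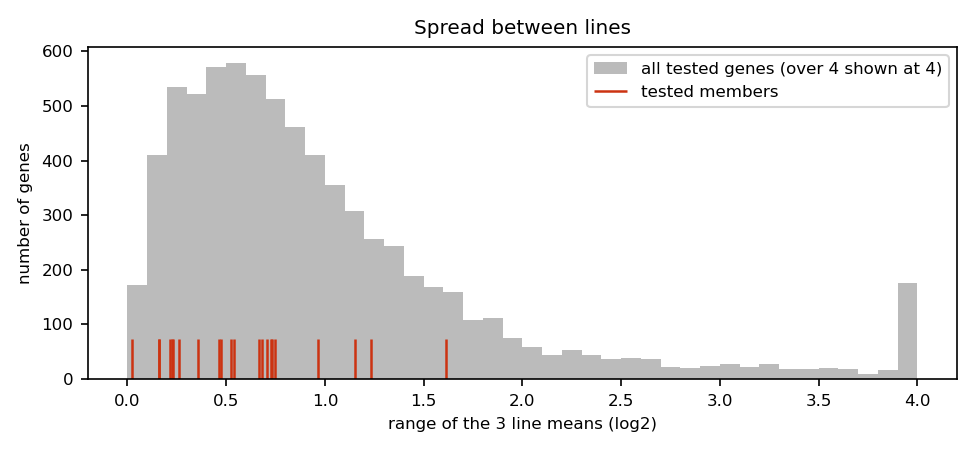
Number of tested genes (grey bars, y axis) by the range of their 3 line means in log2 units (x axis). Red ticks mark the 22 tested members, which run from 0.02 for NDUFA6-DT to 1.61 for COX5A.

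Pairwise, KMS11 was higher than RPMI8226 in 6 members (background 35.6% of tested genes) and lower in 6 (background 29.4%). U266 was higher than RPMI8226 in 5 members (background 35.1%) and lower in 4 (background 32.4%). Against KMS11, U266 was higher in 7 members (background 29.8%) and lower in 5 (background 34%). The highest line mean was that of KMS11 for 8 members, U266 for 8 and RPMI8226 for 6 (background 34.4%, 32.5% and 33.1%), and the lowest was that of KMS11 for 10, RPMI8226 for 7 and U266 for 5 (background 28.5%, 36.1% and 35.4%). These contrasts share lines and are not independent of one another. UQCRB entered the test only through its level in KMS11. It counts among the 6 members higher in KMS11 than in RPMI8226 and the 5 lower in U266 than in KMS11. It is also among the 8 with the highest mean in KMS11. With no filter, the counts of 6 and 5 were 5 and 4. The count for U266 over RPMI8226 was 1 without the RPMI8226 mimic array and 2 without either U266 array. That for U266 over KMS11 was 4 without the control array of KMS11 or of U266, and that for U266 under KMS11 was 3 without the KMS11 mimic array. Each line had 1 transfection per treatment with no repeat of either, so these p-values measure the spread left between 2 arrays of a line, which may be technical.

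**Figure D3:**
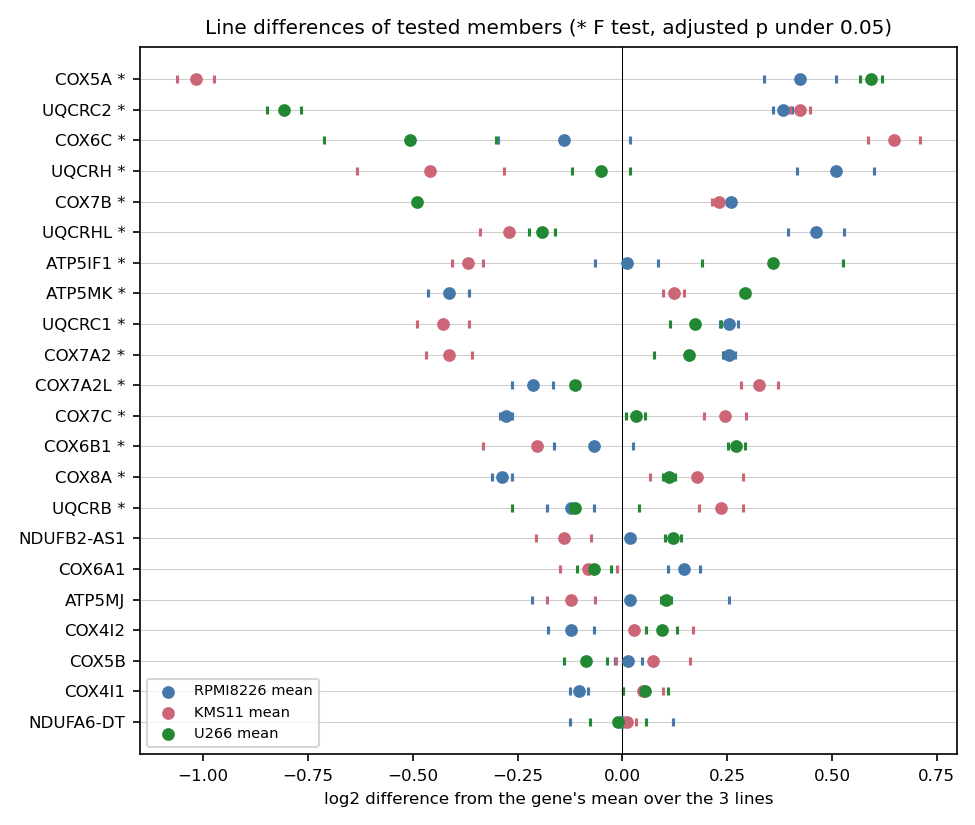
Line means of the 22 tested members (dots) and their single arrays (ticks), as log2 differences from the gene's mean over the 3 lines (x axis), ordered by range. Asterisks mark the 15 members past the F test; COX5A lies lowest in KMS11 and UQCRC2 lowest in U266.

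Within complex III, all 5 tested members passed the F test, near the 82.4% of all tested genes that did. UQCRB passed narrowly and entered the test only through its level in KMS11. UQCRC2, a core protein of the complex (probe set 16816739), read 10.83 and 10.87 on the control and mimic arrays of RPMI8226, 10.92 and 10.87 in KMS11, and 9.70 and 9.62 in U266. Both U266 arrays lay below the other 4, and RPMI8226 and KMS11 overlapped. U266 was lower than RPMI8226 by 1.19 log2 units and lower than KMS11 by 1.23 (SE 0.08 each; limma, adjusted p = 6.97e-05 and 7.94e-05). Its partner UQCRC1, the other core protein (probe set 16953568), had another pattern. It read 7.77 and 7.81 in RPMI8226, 7.05 and 7.17 in KMS11, and 7.65 and 7.77 in U266. Here both KMS11 arrays were the lowest, 1.6-fold below RPMI8226 and 1.52-fold below U266 (limma, adjusted p = 0.000634 and 0.00115). RPMI8226 and U266 differed by 0.08 ± 0.08 (SE), which missed the threshold. The 2 core proteins were thus low in different lines.

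The hinge protein of complex III, which sits between cytochrome c1 and cytochrome c, is read by UQCRH and by UQCRHL, a near-identical intronless copy. UQCRH read 6.18 and 6.36 in RPMI8226, 5.13 and 5.48 in KMS11, and 5.78 and 5.64 in U266. UQCRHL read 9.16 and 9.29 in RPMI8226, 8.43 and 8.57 in KMS11, and 8.54 and 8.60 in U266. In both genes the RPMI8226 arrays were the highest, and in both KMS11 had the lowest mean. KMS11 and U266 differed past the threshold in UQCRH (limma, adjusted p = 0.0337). In UQCRHL they did not (limma, adjusted p = 0.434), and their arrays overlapped. RPMI8226 exceeded KMS11 1.95-fold in UQCRH and 1.66-fold in UQCRHL (limma, adjusted p = 0.00107 and 0.000468). Because the copies share most of their sequence, the probe sets may read each other's transcript, and which locus gave the signal is uncertain. UQCRB, a small subunit near the ubiquinone site, read 4.63 and 4.74 in RPMI8226, 5.10 and 4.99 in KMS11, and 4.85 and 4.55 in U266. Its line means in RPMI8226 (4.688) and U266 (4.699) lay under the filter of 4.703, so UQCRB entered the test only through KMS11. It just passed the F test (limma, adjusted p = 0.0441), with KMS11, that same line, highest. That call was lost with no filter, with array medians centred, with a variance trend, without either KMS11 array and without the RPMI8226 control array (adjusted p from 0.0516 to 0.183). The pseudogene UQCRBP1 stood below the filter and ran from 3.52 to 4.30.

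Of the 12 tested complex IV members, 8 passed the F test (66.7%, against 82.4% of all tested genes). COX5A, which joins the complex early and binds the COX4 subunit (probe set 16811739), had the widest range of the tested members. It read 10.27 and 10.44 in RPMI8226, 8.87 and 8.96 in KMS11, and 10.55 and 10.50 in U266. The KMS11 arrays lay more than a log2 unit below the lowest other array. KMS11 was 2.72-fold below RPMI8226 and 3.05-fold below U266 (log2 differences of 1.44 and 1.61, SE 0.09; limma, adjusted p = 6.05e-05 and 4.43e-05). RPMI8226 and U266 differed by 0.17 ± 0.09 (SE), short of the threshold. Its assembly partner COX4I1, the largest nuclear-encoded subunit, was the most even of the complex IV members, with readings from 10.31 to 10.54 in all 6 arrays and an F test adjusted p of 0.211 in limma. COX5B, a zinc-binding subunit, was similarly even, from 5.55 to 5.85 (limma, adjusted p = 0.336). With a variance trend COX4I1 did pass (adjusted p = 0.0184 in limma), at the same range of 0.16 log2 units. The 1.61 of COX5A compares with 0.16 in each of these subunits.

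COX6C, a small membrane-spanning subunit, read 5.26 and 4.95 in RPMI8226, 5.95 and 5.83 in KMS11, and 4.53 and 4.94 in U266. Both KMS11 arrays were above the other 4, while RPMI8226 and U266 nearly met. KMS11 was 1.72-fold above RPMI8226 and 2.23-fold above U266 (limma, adjusted p = 0.00873 and 0.0019). The 2 U266 arrays differed by 0.41, so the excess over U266 was 0.84 without its control array and 1.47 without its mimic array. COX7C, another small subunit, read 7.37 and 7.40 in RPMI8226, 7.86 and 7.96 in KMS11, and 7.67 and 7.72 in U266. RPMI8226 was the lowest, by 1.44-fold against KMS11 and 1.24-fold against U266 (limma, adjusted p = 0.00184 and 0.0149). KMS11 and U266 did not differ beyond the threshold (limma, adjusted p = 0.0572). COX7A2L, a relative of COX7A2 known for joining complexes III and IV into supercomplexes, read 5.70 and 5.60 in RPMI8226, 6.15 and 6.24 in KMS11, and 5.76 and 5.74 in U266. It was 1.45-fold higher in KMS11 than in RPMI8226 and 1.36-fold higher than in U266 (limma, adjusted p = 0.00235 and 0.00565).

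Complex IV isoforms were followed next, each gene being compared only with itself across lines, since levels of different probe sets cannot be ranked. The widest line difference among all 28 members belonged to COX6A2, the heart and skeletal muscle form of subunit 6A (probe set 16826010). It read 3.56 and 4.01 in RPMI8226, 4.13 and 4.02 in KMS11, and 6.49 and 5.81 in U266. Both U266 arrays were above all others by more than a log2 unit. The U266 mean exceeded that of RPMI8226 by 2.37 log2 units and that of KMS11 by 2.07. With a mean of 4.67, COX6A2 lay just under the filter of 4.70 and was not among the tested genes. In the alternative fit of all named genes it was higher in U266 than in RPMI8226 and KMS11 (limma, adjusted p = 0.00056 and 0.00109). COX7B2, the testis form of subunit 7B (probe set 16975634), was also highest in U266. It read 2.46 and 2.83 in RPMI8226, 2.29 and 2.42 in KMS11, and 4.07 and 3.67 in U266. In the fit of all named genes U266 exceeded RPMI8226 by 1.23 and KMS11 by 1.52 (limma, adjusted p = 0.0027 and 0.00123). Its level in U266 remained under the filter level, where readings are uncertain.

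The widely used form COX7B moved the other way across lines. It read 6.81 and 6.81 in RPMI8226, 6.76 and 6.80 in KMS11, and 6.06 and 6.07 in U266, the tightest pairs of any member. U266 was 1.68-fold below RPMI8226 and 1.65-fold below KMS11 (limma, adjusted p = 0.000369 and 0.000491). U266 was thus the line with the lowest COX7B and the highest COX7B2. For subunit 6A the widely used form COX6A1 read from 10.86 to 11.20 and missed the threshold (limma, adjusted p = 0.0936), though it passed with a variance trend and in the upper 25% of genes. That value needs care. COX6A1 has 2 probe sets, and the one used (17008088) carries a number inside a run of chromosome 6 genes: all 10 of its nearest named probe sets by number belong to chromosome 6, while the gene itself lies on chromosome 12. The reference table lists COX6A1 pseudogenes on chromosome 6. The other probe set (16757886), numbered among chromosome 12 genes, read from 2.14 to 2.81. Of 15552 named probe sets inside such runs, 38 belonged to a gene of another chromosome. Which copy the COX6A1 value describes was not tested.

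The remaining pairs showed no such split. COX7A2, the widely used form of subunit 7A, read 6.67 and 6.64 in RPMI8226, 5.93 and 6.04 in KMS11, and 6.47 and 6.64 in U266. KMS11 was 1.59-fold below RPMI8226 and 1.49-fold below U266 (limma, adjusted p = 0.00102 and 0.00206). Its muscle form COX7A1 ran from 3.11 to 3.54, below the filter in every array. COX6B1 read 6.63 and 6.45 in RPMI8226, 6.28 and 6.53 in KMS11, and 6.90 and 6.86 in U266, the highest line. U266 exceeded KMS11 1.39-fold (limma, adjusted p = 0.0158), but the F test (adjusted p = 0.0269) no longer passed without either U266 array (0.0991 and 0.055) or with no filter (0.0544). COX8A read 10.54 and 10.58 in RPMI8226, 10.92 and 11.14 in KMS11, and 10.95 and 10.97 in U266. RPMI8226 was the lowest, 1.38-fold under KMS11 (limma, adjusted p = 0.00493), and the F test, at 0.00656, was 0.0595 without the RPMI8226 mimic array. COX6B2 and COX8C, the testis forms, ran from 2.80 to 3.26 and from 2.40 to 2.89. COX4I2, a lung form that low oxygen is known to induce, ran from 4.69 to 5.04 and missed the threshold between lines (limma, adjusted p = 0.218).

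**Figure D4:**
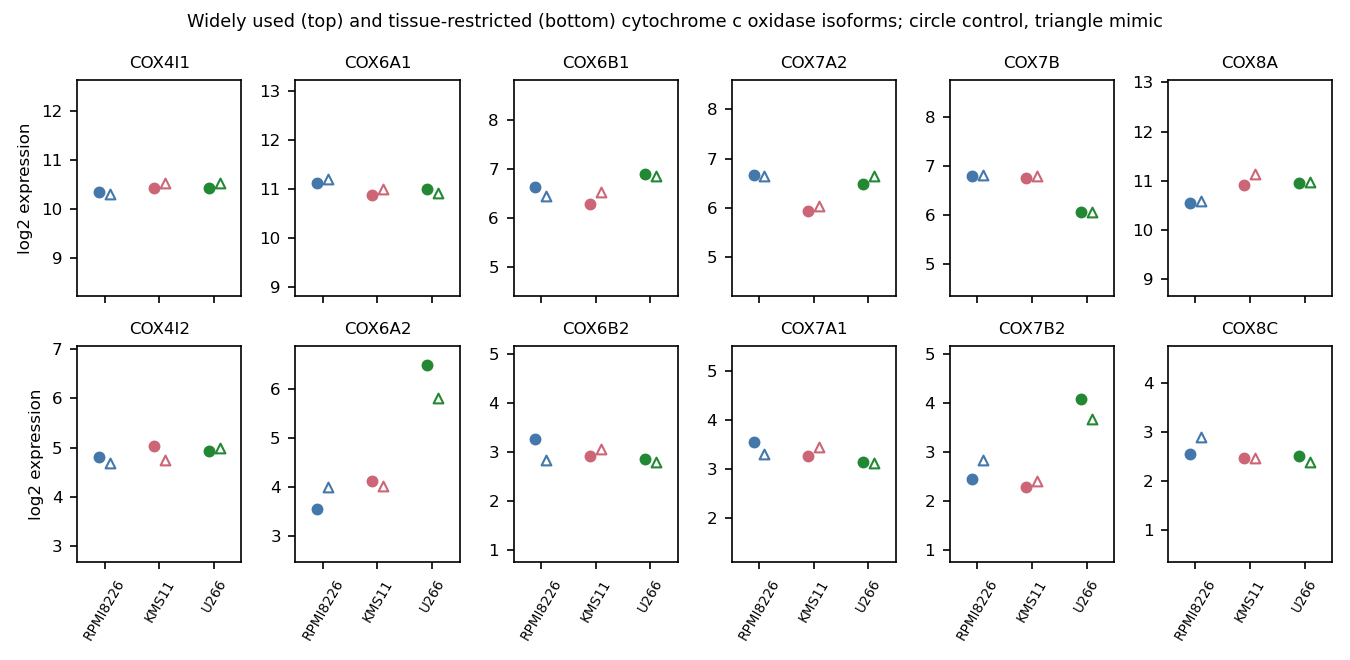
Log2 expression (y axis, the same span in each panel) of widely used complex IV isoforms (top) and tissue-restricted forms (bottom) in the 3 lines (x axis); circles are control and triangles mimic arrays. U266 is high for COX6A2, at 6.49 and 5.81, and for COX7B2, at 4.07 and 3.67, and low for COX7B, at 6.06 and 6.07.

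Upstream sequences are shown for the pair of members with the widest tested line differences and for the pair of tissue-restricted forms that were highest in U266. They are the 250 bases before the start of transcription in RefSeq (GRCh38.p14), read 5′ to 3′ on the gene's strand. COX5A lies at chr15:74938074-74938323 on the minus strand, UQCRC2 at chr16:21953111-21953360 on the plus strand, COX6A2 at chr16:31428361-31428610 on the minus strand and COX7B2 at chr4:46909246-46909495 on the minus strand. Capitals mark matches on either strand to the searched motifs, of which these stretches hold only TATAAA.
COX5A: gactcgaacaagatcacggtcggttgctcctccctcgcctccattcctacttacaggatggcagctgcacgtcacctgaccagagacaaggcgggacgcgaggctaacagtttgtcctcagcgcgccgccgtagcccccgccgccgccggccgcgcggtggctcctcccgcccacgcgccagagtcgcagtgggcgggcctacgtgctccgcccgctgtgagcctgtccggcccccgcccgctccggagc
UQCRC2: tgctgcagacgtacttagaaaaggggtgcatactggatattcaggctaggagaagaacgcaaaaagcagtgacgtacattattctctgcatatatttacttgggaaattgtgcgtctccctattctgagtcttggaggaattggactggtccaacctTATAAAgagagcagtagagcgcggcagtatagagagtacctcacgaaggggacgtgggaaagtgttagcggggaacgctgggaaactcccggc
COX6A2: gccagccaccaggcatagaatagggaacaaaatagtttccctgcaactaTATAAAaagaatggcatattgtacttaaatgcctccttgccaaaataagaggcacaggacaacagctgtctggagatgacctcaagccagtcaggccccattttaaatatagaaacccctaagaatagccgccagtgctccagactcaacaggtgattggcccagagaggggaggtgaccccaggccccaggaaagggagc
COX7B2: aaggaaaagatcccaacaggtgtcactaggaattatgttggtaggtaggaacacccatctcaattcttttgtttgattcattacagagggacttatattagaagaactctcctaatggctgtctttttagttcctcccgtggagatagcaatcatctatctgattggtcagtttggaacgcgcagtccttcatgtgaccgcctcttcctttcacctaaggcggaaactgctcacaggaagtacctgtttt
The stretches differ in base composition. COX5A has 31 CpG dinucleotides and 70.8% G and C in this stretch, UQCRC2 has 11 and 48.4%, COX7B2 has 5 and 43.2%, and COX6A2 has 1 and 49.2%.

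RefSeq promoter windows of 300 bases, from 250 before to 50 after the start, matched 22 of the 28 members. The motifs searched on both strands were CGCATGC (the middle of the site of nuclear respiratory factor 1), CCGGAAG (ETS factors such as GABPA), AAGATGG (YY1) and TATAAA. The ETS motif CCGGAAG was found in 7 of 16 matched promoters of tested protein-coding members (43.8%), against 21.8% of 5721 promoters of tested protein-coding genes and 14.2% of 15843 protein-coding promoters. The 7 were ATP5MK, COX4I1, COX5B, COX6A1, COX6B1, COX8A and UQCRH. AAGATGG was found in 3 of the 16, COX7C, UQCRC1 and UQCRC2 (18.8%, against 8.72% of tested genes). TATAAA was found in 2, COX7B and UQCRC2 (12.5%, against 5.17%), and CGCATGC in 2, COX5B and COX6A1 (12.5%, against 7.13%). COX6A1, counted for CCGGAAG and CGCATGC, is a tested member only through probe set 17008088, numbered among chromosome 6 genes. Its probe set numbered among chromosome 12 genes, where the gene lies, read from 2.14 to 2.81, under the filter. Without COX6A1, COX5B alone would hold CGCATGC. No window of the 4 matched members under the filter (COX6A2, COX6B2, COX7B2 and COX8C) held CCGGAAG. CpG dinucleotides numbered 19.5 at the median in the windows of tested members, below the 27 of all tested protein-coding genes and the 22 of all protein-coding promoters, and 9 in those 4, with 0 in COX7A2 and 42 in COX4I1. These matches describe letters in a window and were not tested against the array values.

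ATP synthase was represented by 3 accessory genes. ATP5IF1 encodes the inhibitor that keeps the enzyme from hydrolysing ATP. It read 6.58 and 6.74 in RPMI8226, 6.24 and 6.32 in KMS11, and 6.84 and 7.18 in U266. The lines did not overlap: U266 was highest, RPMI8226 intermediate and KMS11 lowest. U266 exceeded KMS11 by 0.73 and RPMI8226 by 0.35, and RPMI8226 exceeded KMS11 by 0.38 (SE 0.10 each; limma, adjusted p = 0.0011, 0.0193 and 0.0146). ATP5MK, a small subunit of the membrane part linked to dimer formation, read 6.10 and 6.19 in RPMI8226, 6.66 and 6.71 in KMS11, and 6.84 and 6.86 in U266. RPMI8226 was the lowest, by 1.45-fold against KMS11 and 1.63-fold against U266 (limma, adjusted p = 0.00164 and 0.000494). ATP5MJ, another small membrane subunit, ran from 5.46 to 5.93, and both of these extremes were RPMI8226 arrays. It missed the F test (limma, adjusted p = 0.399). The catalytic and c-ring genes of ATP synthase were not analysed here.

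Among the non-coding members, NDUFA6-DT was level across lines on the probe set used (16930884), from 5.03 to 5.27 (limma, adjusted p = 0.982). Its other probe set (16930868) was less even and lay under the filter level. That one read 3.20 and 3.87 in RPMI8226, 3.24 and 3.43 in KMS11, and 4.46 and 3.60 in U266. NDUFB2-AS1 read 5.88 and 5.90 in RPMI8226, 5.66 and 5.80 in KMS11, and 5.97 and 6.01 in U266. Its F test missed the threshold (limma, adjusted p = 0.0617), although U266 against KMS11 passed on its own (1.2-fold, adjusted p = 0.0331). Whether the probe set separates this antisense RNA from NDUFB2 was not tested.

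Because the members are scattered over the genome, each was set beside its 10 nearest tested genes in the reference gene order. The neighbours' median had the sign of the member for 13 of 22 members in KMS11 against RPMI8226, 13 in U266 against RPMI8226 and 14 in U266 against KMS11. It had the other sign for 9, 9 and 8. Signs were counted whatever the size of the difference, as for NDUFA6-DT at 0.01 in KMS11 against RPMI8226. COX6A1 was set beside chromosome 12 genes, although its probe set is numbered among chromosome 6 genes. The share over all tested genes was not computed, so these counts do not show whether members follow their neighbours more than other genes do. The loci below are examples. Around COX5A, 8 of 10 neighbours were also lower in KMS11 than in RPMI8226, with a median of -0.61 against -1.44 for COX5A, and in U266 against KMS11 their median was 0.35 where COX5A had 1.61. Around UQCRC2, 9 of 10 were lower in U266 than in RPMI8226, with a median of -0.72 against -1.19. Against KMS11, however, the U266 median there was -0.17, where UQCRC2 had -1.23. Around COX7A2, 8 of 10 neighbours were lower in KMS11 than in RPMI8226, and their median of -0.65 was close to the -0.67 of COX7A2. Around UQCRB, 10 of 10 were higher in KMS11 than in RPMI8226, with a median of 1.18 against 0.36. Neighbours of UQCRH (median -0.04, member -0.97), COX7C (median -0.08, member 0.52) and COX8A (median -0.11, member 0.46) showed no like shift in that contrast. Those of COX6B1 (median 0.54, member -0.13) and NDUFB2-AS1 (median 0.67, member -0.16) had the other sign. Neither of these members itself differed beyond the threshold there (limma, adjusted p = 0.369 and 0.136). Copy number was not measured here, and the part of position in these differences was not tested.

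Other genes of the pathway are given by list, and several lists passed the F test at shares near the 82.4% of all tested genes. The lists were written with earlier results of these data known. Of 39 tested assembly factors, 36 passed the F test (92.3%, against 82.4% of all tested genes), with 8 higher and 19 lower in KMS11 than in RPMI8226 (background 35.6% and 29.4%). COX20, an assembly factor for complex IV, had the widest range and, like COX5A, was lowest in KMS11, at 6.61 against 8.19 in RPMI8226 and 8.81 in U266 (line means of 2 arrays). ECSIT, an assembly factor of complex I, had line means of 5.45 in RPMI8226, 5.22 in KMS11, 6.75 in U266. COA4, for complex IV, stood at 7.88, 6.49 and 7.27 in the same order. CYC1, the cytochrome c1 subunit that the symbol rule does not take in, had line means of 9.34 (RPMI8226), 8.58 (KMS11) and 8.0 (U266), lowest in U266 as UQCRC2 was (limma F test, adjusted p = 8.11e-05). The other tested carriers were DHODH, which feeds electrons from pyrimidine synthesis (7.54, 6.12 and 6.85), and ETFDH, which feeds them from fatty acid oxidation (6.78, 7.65 and 7.54).

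Of 10 tested genes of the TCA cycle and pyruvate dehydrogenase, 9 passed the F test (90%, near the background of 82.4%), 7 being lower and 1 higher in KMS11 than in RPMI8226 (background 29.4% and 35.6%). PDHA1, a subunit of pyruvate dehydrogenase, had line means of 7.39 (RPMI8226), 6.72 (KMS11) and 6.01 (U266). OGDH, of the TCA cycle, stood at 9.67, 8.44 and 8.93, and DLAT at 8.42, 7.58 and 7.23. All 4 tested coenzyme Q synthesis genes passed (100%, against 82.4% of all tested genes). COQ9 had line means of 9.36, 8.12 and 8.39, COQ8B 4.73, 5.06 and 4.34, and COQ8A 6.09, 5.63 and 5.59. COQ8B had a mean of 4.709, just over the filter of 4.703, which it reached through KMS11, its highest line. Of 7 tested regulators of mitochondrial transcription and biogenesis, 6 passed (85.7%). ESRRA, a nuclear receptor, was highest in RPMI8226 (5.98, against 5.02 and 5.15), as was TWNK, the mitochondrial DNA helicase (6.88, against 6.06 and 6.43), while NRF1 was highest in KMS11 (7.24, against 6.36 in RPMI8226 and 6.66 in U266). The list of nucleotide and phosphate carriers had 3 tested genes, the outer membrane channels VDAC1 (8.34, 7.69 and 8.38 in the order RPMI8226, KMS11, U266), VDAC2 (5.86, 6.0 and 6.27) and VDAC3 (9.83, 10.55 and 10.60), which all passed. Of 73 tested mitochondrial ribosomal protein genes, 63 passed (86.3%), with a median range of 0.66 log2 units. MRPS21 was lowest in KMS11 (10.80 in RPMI8226, 8.63 and 11.09), MRPL40 lowest in RPMI8226 (4.63, 6.74 and 7.06), and MRPS35 lowest in U266 (9.41, 9.14 and 7.42). The F test adjusted p in limma of the genes named from these lists lay between 5.75e-06 and 0.012. None of the 13 listed subunits encoded in mitochondrial DNA (0 of 13) was among the named probe sets.

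The second question was whether the miR-10a mimic changes these genes. The mature 5p strand of miR-10a in RefSeq (GRCh38.p14) is shown because its seed, bases 2 to 8 and here in capitals, is what a mimic of that strand would present to target transcripts. The labels do not say which strand the mimic represents.
hsa-miR-10a-5p: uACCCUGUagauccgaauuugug
With the line as a block, limma called 0 of 22 members (background 0%), and 0 had an unadjusted p under 0.05 (background 5.42%). Without the block it again called 0. The smallest adjusted p among members was 0.902, for ATP5IF1. Mean changes ran from -0.11 for ATP5MJ to 0.19 for ATP5IF1. The 95% intervals of all 22 members lay within 1.5-fold either way (7265 of 7442 genes overall), and those of 14 within 1.2-fold (3743 overall).

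By sign, 16 members had a higher and 6 a lower mean with mimic. Of all 7442 tested genes, 3637 were higher and 3805 lower. The median change was 0.05 log2 units over the members against -0.0029 over all tested genes. By line it was 0.10 in KMS11, 0.04 in RPMI8226 and 0.02 in U266. Over all tested genes the line medians were -0.0011, 0.013 and -0.020 in the same order. The same sign in all 3 lines was seen for 8 members, all higher (background 26.5% for either sign and 12.7% for higher), while 0 were lower in all 3 (background 13.8%). Members of one chain share their arrays, so these counts are not independent observations, and no test was made of them. ATP5IF1 read higher by 0.34 in U266, 0.15 in RPMI8226 and 0.07 in KMS11 (mean 0.19 ± 0.14, SD, n = 3 lines). UQCRHL gave 0.13, 0.14 and 0.06 in the order RPMI8226, KMS11, U266, COX8A 0.05, 0.22 and 0.03, UQCRC1 0.04, 0.13 and 0.12, and NDUFB2-AS1 0.02, 0.13 and 0.04. COX7C, ATP5MK and COX7B completed the 8, with means of 0.06 ± 0.04, 0.06 ± 0.04 and 0.02 ± 0.01. None of these passed the test (limma, adjusted p from 0.902 to 0.984).

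**Figure D5:**
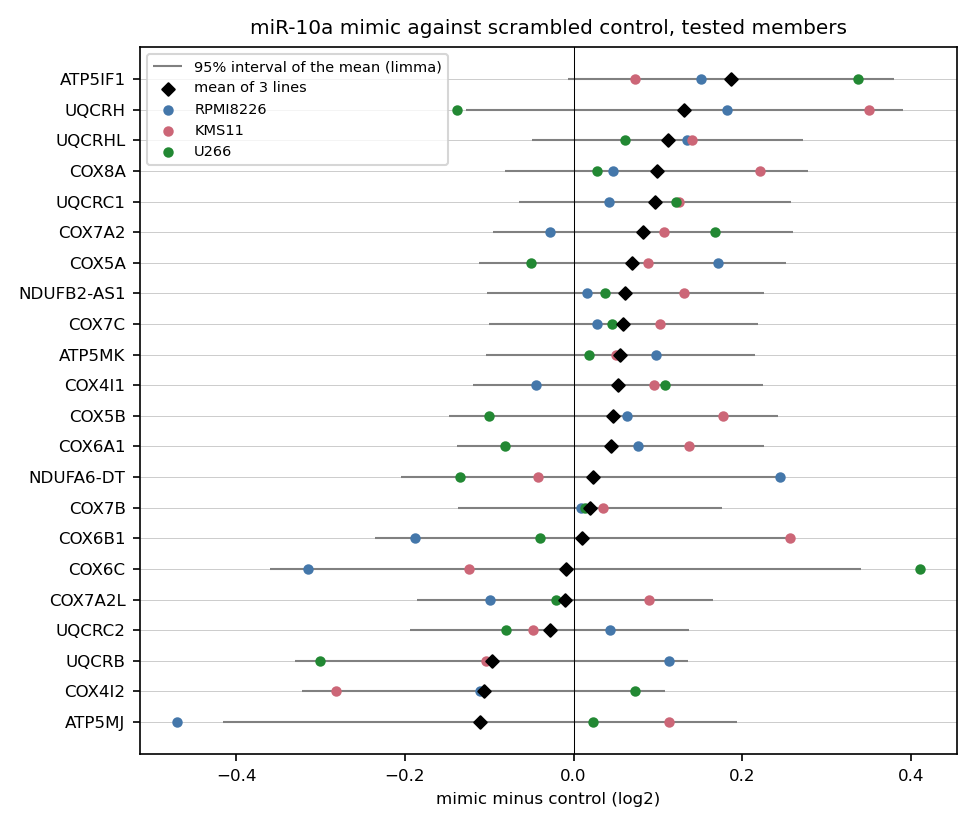
Mimic minus control in log2 units (x axis) for each tested member (rows). Coloured dots are the 3 lines, black diamonds their mean and grey bars the 95% interval from limma; every bar crosses 0, and the means run from -0.11 to 0.19.

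Within single lines, changes have no replicate check. In RPMI8226 the highest changes were 0.24 for NDUFA6-DT and 0.18 for UQCRH, and the lowest -0.47 for ATP5MJ and -0.31 for COX6C. In KMS11 the highest were 0.35 for UQCRH and 0.26 for COX6B1, and the lowest -0.28 for COX4I2 and -0.12 for COX6C. In U266 the highest were 0.41 for COX6C and 0.34 for ATP5IF1, and the lowest -0.30 for UQCRB and -0.14 for UQCRH. COX6C thus read higher with mimic in U266 and lower in both other lines. A change of at least 1.2-fold either way was read for 2 members in RPMI8226 (background 13.3%), 2 in KMS11 (background 12.4%) and 3 in U266 (background 13%). Each line's mimic effect was tested against that of the other lines, and 0 members passed in limma (background 0%), with the smallest adjusted p at 0.826 for COX6C in U266. Under the filter, COX6A2 read 0.45 higher with mimic in RPMI8226, -0.10 in KMS11 and -0.68 in U266, and COX7B2 0.37, 0.13 and -0.40. In U266, where both genes were highest, both thus read lower on the mimic array than on the control array, in 1 pair of arrays without a test.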

How the data were processed

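The deposited table holds the authors' log2 values of 53617 probe sets, 1 column per array, with 0 columns unmapped. The submitters' processing notes name Affymetrix Expression Console 1.3.0. How background, scale and probe set summaries were set, and on which build, is not given in the sources used here, so the low end of the scale may be compressed and no detection calls were used. The number of arrays limits the precision. Names come from GEO's platform annotation (16098 with 1 symbol, 0 with several, 37519 unnamed here). Genes were represented by the probe set with the highest mean, and the 7442 genes with a mean at or above 4.70 were tested.

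Differences between lines and between mimic and control were fitted in limma 3.58.1 in R 4.3.3, by lmFit and eBayes with no trend, with line and treatment as terms, two-sided, with Benjamini-Hochberg adjustment over all tested genes. Residual degrees of freedom were 2, and eBayes added 3.82. The line label pairs the arrays: deviations of a line's arrays from their treatment means correlated at 0.970, 0.967 and 0.970. The code was tested on simulated data. Named were all members, and per pathway list the 3 tested genes with the widest range of line means. The motif of nuclear respiratory factor 1 was shortened after a longer form had been searched. Members and lists were chosen with earlier results of these data known. Alternatives were other filters, scalings and probe set rules, a variance trend, fits without a term, and leaving out arrays or lines.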

Additional observations from a re-analysis of the deposited data

How the results depend on the processing

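The count of 15 members between lines was 11 among the upper 25% of genes and otherwise 13 to 16, the 13 (of 17) after leaving out non-coding members and COX6A1, UQCRH and UQCRHL, a choice made after seeing the data. Over all genes, 6135 of 7442 passed, 7561 of 14884 with no filter, and 3474 of 3721 among the upper 25%. There, fewer members were tested: 3 were higher in KMS11 than in RPMI8226 and 3 lower in U266 than in KMS11. Leaving out single arrays gave 1 to 5 members higher in U266 than in RPMI8226, 4 to 6 higher in U266 than in KMS11, and 3 to 5 lower in U266 than in KMS11. The KMS11 minus U266 difference of NDUFA6-DT, 0.02, was -0.033 with array medians centred and ran from -0.096 to 0.14 when single arrays were left out, below 0 without the KMS11 control array (-0.027) or the U266 mimic array. Of 275 refits of a member's line difference, 257 kept direction and side of the threshold, 10 lost the call, 5 gained it and 3 changed sign. In many refits the difference could not change: other filters, a variance trend, no treatment term or leaving out an array of the third line keep it as it was. Those refits bear on the threshold only, not on direction.

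With mimic, 0 members passed in each alternative, no replicate block included (genes at an unadjusted p under 0.05 in limma: 403 with the block, 2 without), and the median change stayed between 0.03 and 0.07, the lowest without KMS11.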
